A study of Mus musculus with 4 samples.

Results

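Notch is a receptor system in which ligand and receptor sit on neighbouring cells. A Jagged or Delta-like ligand on a cell binds a Notch receptor on the next, the receptor is cut by an ADAM protease and then by gamma-secretase, and the freed intracellular part enters the nucleus, joins the DNA-binding protein Rbpj and switches on targets such as the Hes and Hey repressors. In stratified squamous epithelium, which lines the mouth, Notch signaling is known for driving cells out of the basal layer towards differentiation, and Notch receptor genes are often mutated in squamous cell carcinoma.

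The RNA levels of 10 genes of this system, chosen by name, were described across 4 mouse oral cancer cell lines: the receptors Notch1, Notch2 and Notch3, the receptor-modifying enzyme Lfng, the ligands Jag1, Jag2 and Dll1, and the targets Hes1, Hey1 and Nrarp. They are 10 of 34685 genes in the expression table. The lines are called Ajou oral cancer (AOC) lines. AOC3 and AOC11 came from primary oral tumors, and AOC3-LN and AOC11-LN from the lymph nodes of these 2 mice. The mice were male C57BL/6, 6 to 8 weeks old when treatment began, and the carcinogen DMBA was painted onto the buccal mucosa for 28 weeks in the mouse of the AOC3 lines and 31 weeks in the mouse of the AOC11 lines. No untreated oral epithelium is among the samples, and no transgene is named for any line. Tumor cells were first kept in culture, and those that proliferated were injected under the skin of mice. Cells from the tumors that grew there were freed of fibroblasts and grown as the lines. Each line is therefore a selected culture and not a tumor. Every line was sequenced as 1 library, which leaves any comparison of single lines without replicates, and the comparison of the AOC3 lines with the AOC11 lines compares 1 mouse with another.

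The libraries held about 28300000 to 33900000 fragments each, as estimated from the steps between low values. As a check of the label, all 9 epithelial markers, among them Epcam, Krt5 and Krt14, reached 1 FPKM in at least 1 line. Their summed levels were between 2906 and 3587 FPKM, but single markers differed between the lines. Krt5 was at 499 FPKM in AOC3 and 275 in AOC3-LN, against 4.99 in AOC11 and 17.0 in AOC11-LN. Krt19 ran the other way, at 3.65 and 50.1 against 111 and 63.3. None of 8 fibroblast and none of 7 endothelial markers reached 1 FPKM in any line. Of 6 macrophage markers 2 did, Cd68 at 4.45 to 13.0 FPKM and Csf1r, with Adgre1 and C1qa at 0. Csf1r was at 0.995 FPKM in AOC3 and 0.435 in AOC3-LN, against 20.8 in AOC11 and 6.01 in AOC11-LN. Of 6 T cell markers 1 did, Trac at 0.961 to 2.13 FPKM, with Cd3e, Cd4 and Cd8a at 0. Levels are given in FPKM, fragments per unit of transcript length and of library size, which permits genes to be set side by side. Differences are given on the scale of quantile-normalized log2(FPKM + 1), on which changes of low genes are understated, and a difference above 1 or below -1 was counted as past the fold threshold. In RNA from a culture, fewer cells of a kind and less RNA per cell cannot be told apart.

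The members' promoters give the DNA behind these readouts. The RefSeq promoters used here cover 8 of the 10 genes, 9 promoters in all because Dll1 has 2, on GRCm38.p6, which is mm10. Hes1 and Hey1 had no promoter among them and were not searched. Of the 9 promoters, 4 are shown. Notch1 and Jag1 had the widest ranges of normalized level over the lines, among the members that reached 1 FPKM in a line. Nrarp is a direct target of the pathway. Lfng is the 1 searched member in which the core letters of the Rbpj site were found. Each stretch runs 5′ to 3′ on the strand of its gene, from 250 bases before the RefSeq start towards the start, and ends where the first exon annotated for the gene in GENCODE M21 begins. Capitals mark TGGGAA, the core of the Rbpj site, or its complement.
Notch1: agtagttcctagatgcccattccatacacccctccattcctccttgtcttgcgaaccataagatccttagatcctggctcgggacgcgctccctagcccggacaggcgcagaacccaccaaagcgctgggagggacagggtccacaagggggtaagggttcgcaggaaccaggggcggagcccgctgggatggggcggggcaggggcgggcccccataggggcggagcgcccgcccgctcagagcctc
Jag1: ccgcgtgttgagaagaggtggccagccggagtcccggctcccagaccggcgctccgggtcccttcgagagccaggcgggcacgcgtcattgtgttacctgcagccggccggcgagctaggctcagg
Nrarp: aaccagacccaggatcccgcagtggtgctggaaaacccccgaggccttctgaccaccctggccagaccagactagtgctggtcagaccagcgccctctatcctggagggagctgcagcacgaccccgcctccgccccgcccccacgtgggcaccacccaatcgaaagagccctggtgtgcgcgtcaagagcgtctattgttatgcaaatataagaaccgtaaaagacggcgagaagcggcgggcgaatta
Lfng: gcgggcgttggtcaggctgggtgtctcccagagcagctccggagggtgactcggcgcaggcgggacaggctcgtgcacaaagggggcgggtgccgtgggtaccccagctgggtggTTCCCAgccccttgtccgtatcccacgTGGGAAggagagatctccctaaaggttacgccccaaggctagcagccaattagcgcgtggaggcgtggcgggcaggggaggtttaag
The Notch1 stretch, 248 bases on the minus strand at chr2:26503825-26504072, lies in an intron of a longer Notch1 transcript. The other 3 lie upstream of every annotated transcript of their gene. These are Jag1, 126 bases on the minus strand at chr2:137116645-137116770, Nrarp, 250 bases on the plus strand at chr2:25180508-25180757, and Lfng, 229 bases on the plus strand at chr5:140607091-140607319. TGGGAA was searched on both strands of the 250 bases upstream of each start. It was found in 1 of the 9 promoters of members, that of Lfng, which holds it on opposite strands beginning 135 and 108 bases before the start. Of 32851 mouse promoters of the same length, 21.6% hold it and 2.77% hold it at least 2 times. CACNAG, the N box that Hes proteins bind, was found in 5 of the 9 promoters of members, those of Notch1, Notch2, Notch3, Lfng and Nrarp, against 36.7% of all promoters. In the Lfng promoter, the 1 that holds both motifs, their matches do not overlap. A match of letters is a description and not a site of binding.

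The plot of levels by line shows all 10 genes.

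**Figure D1:**
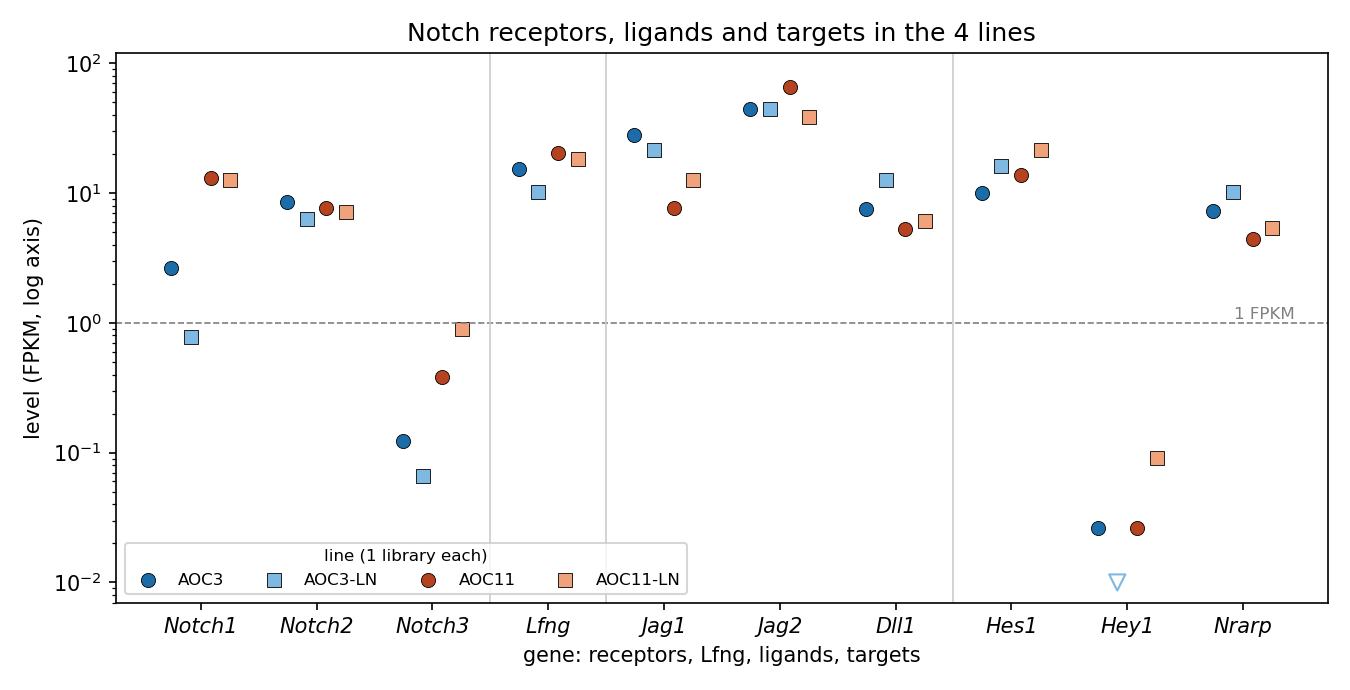
Level of each gene in FPKM (vertical log axis) in the 4 lines, 1 point per library. Blue marks are the AOC3 lines, orange marks the AOC11 lines, circles the primary and squares the lymph node lines, and the open triangle is a value of 0 drawn at the foot of the axis. The dashed line is at 1 FPKM. Notch1 separates the lines of the 2 mice most widely, and Notch3 and Hey1 stay below 1 FPKM in all 4 lines.

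Among the receptors, Notch1, the main Notch receptor of keratinocytes, was the member whose level differed most between the lines. Its gene (ENSMUSG00000026923.15, chromosome 2, 26457903 to 26516663) was at 2.66 FPKM in AOC3 and 0.777 in AOC3-LN, against 13.0 in AOC11 and 12.7 in AOC11-LN. Both AOC11 lines lay above both AOC3 lines, and the higher AOC3 line was 4.77-fold below the lower AOC11 line. The means over the lines differed 7.46-fold, and the normalized log2 difference, AOC3 lines minus AOC11 lines, was -2.37 ± 0.37 (SE, n = 2 lines of each mouse). In limma's moderated test, fitted across all genes with Benjamini-Hochberg adjustment and with the pair of lines of each mouse standing in as replicates, the adjusted p was 0.0944, which misses 0.05. Among protein-coding genes alone, 11373 tested, it was 0.0397, and with a filter of 5 FPKM, 10561 tested, it was 0.0946. Of the tested genes in a line, Notch1 stood at percentile 23.1 in AOC3 and 9.78 in AOC3-LN, and at 54.2 and 53.4 in AOC11 and AOC11-LN.

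Notch1 also differed between the AOC3 lines themselves. About 835 fragments in AOC3 and 205 in AOC3-LN lie behind its levels, and the ratio of AOC3-LN to AOC3 was 0.292, with a 95% counting interval from 0.251 to 0.341. Such intervals, here and for the other ratios, rest on the estimated fragments and cover counting error only. The ratio of AOC11-LN to AOC11 was 0.978, with an interval from 0.936 to 1.02. The normalized log2 differences were -0.93 and -0.05, so neither passed the fold threshold. The first is near it, and passed it on 3 of the other scales tried, at -1.46 with a pseudocount of 0.1, -1.04 without quantile normalization and -1.01 after scaling by the median. Noncoding genes on the opposite strand overlap Notch1, and the counting of the reads is not stated to have used strand.

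Notch2, another receptor of the epithelium (ENSMUSG00000027878.11, chromosome 3, 98013527 to 98150361), was level across the lines. It was at 8.58 FPKM in AOC3 and 6.26 in AOC3-LN, against 7.72 in AOC11 and 7.14 in AOC11-LN. The lines of the mice overlapped, the log2 difference between them was 0.05 ± 0.23 (SE) with limma's adjusted p of 0.917, and its sign depended on the scaling, at -0.01 without quantile normalization. The lymph node line was the lower in both mice, with ratios of 0.730 (counting interval 0.689 to 0.774) and 0.925 (0.876 to 0.978). Notch2 had the smallest range over the 4 lines of the 8 members that passed the filter, 0.31 log2 units against 2.86 for Notch1.

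Notch3, which is known chiefly from vascular muscle cells (ENSMUSG00000038146.8, chromosome 17, 32120820 to 32166852), stayed under the filter of 1 FPKM and entered no test. It was at 0.122 FPKM in AOC3 and 0.0655 in AOC3-LN, against 0.382 in AOC11 and 0.897 in AOC11-LN, from about 32.3, 14.6, 101 and 228 fragments. The order of its lines by mouse was that of Notch1, with both AOC11 lines above both AOC3 lines and means 6.82-fold apart. Within the AOC11 mouse the lymph node line held 2.35 times the level of the primary line (counting interval 1.86 to 2.97). The fourth receptor, Notch4, was at 0.108 FPKM or less in every line.

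The receptor make-up differed between the mice. The FPKM of Notch1, Notch2 and Notch3 summed to 11.4 in AOC3 and 7.11 in AOC3-LN, against 21.1 in AOC11 and 20.7 in AOC11-LN. Notch2 gave 75.5% of this sum in AOC3 and 88.1% in AOC3-LN, and Notch1 gave 61.5% in AOC11 and 61.2% in AOC11-LN. These shares were not tested, and RNA levels are not amounts of receptor at the cell surface. The authors also sequenced the exons of the lines' DNA. In both AOC11 lines they list protein-changing variants of Notch1 and Notch2, with a stop gain in Notch2. For the AOC3 lines they list none in these genes. Whether the variants bear on the RNA levels was not tested.

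Lfng encodes Lunatic fringe, a sugar transferase of the Golgi that changes which ligands a Notch receptor answers to. The gene (ENSMUSG00000029570.5, chromosome 5, 140607320 to 140615545) was at 15.4 FPKM in AOC3 and 10.2 in AOC3-LN, against 20.3 in AOC11 and 18.4 in AOC11-LN. The AOC11 lines lay above the AOC3 lines, 1.52-fold by their means. The log2 difference was -0.51 ± 0.24 (SE), and limma's adjusted p was 0.328. The lymph node line was the lower in each mouse, with ratios of 0.663 (counting interval 0.6005 to 0.731) and 0.905 (0.840 to 0.976). Mfng, another Fringe gene, was at 0.0722 FPKM or less, and Rfng, the third, was between 7.27 and 11.2 FPKM.

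Among the ligands, Jag1 ran the other way from Notch1 between the mice. Jag1 (ENSMUSG00000027276.7, chromosome 2, 137081456 to 137116644), a ligand of the Jagged class, was at 28.2 FPKM in AOC3 and 21.6 in AOC3-LN, against 7.63 in AOC11 and 12.5 in AOC11-LN. Both AOC3 lines lay above both AOC11 lines, with 1.72-fold between the nearest and a 2.47-fold difference of the means. The log2 difference of 1.33 ± 0.29 (SE) passed the fold threshold, and limma's adjusted p was 0.134. Between lymph node and primary line Jag1 differed in opposite directions in the mice. The ratio to the primary line was 0.765 (counting interval 0.732 to 0.799) in the AOC3 mouse and 1.64 (1.54 to 1.76) in the AOC11 mouse, or -0.35 and 0.62 log2 units, and neither passed the fold threshold.

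Jag2, the other Jagged ligand, had the highest level of the 10 genes in every line. Jag2 (ENSMUSG00000002799.6, chromosome 12, 112907819 to 112929776) was at 44.7 FPKM in AOC3 and in AOC3-LN alike, and at 65.1 in AOC11 and 38.9 in AOC11-LN. The AOC11 lines were the highest and the lowest, so the lines of the mice overlapped. The log2 difference was -0.12 ± 0.28 (SE) with limma's adjusted p of 0.842, and the sign turned to 0.24 without AOC11. The ratio of AOC11-LN to AOC11 was 0.597 (counting interval 0.579 to 0.616), and that of AOC3-LN to AOC3 was 0.9998 (0.967 to 1.03).

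Dll1, a ligand of the Delta class (ENSMUSG00000014773.13, chromosome 17, 15367354 to 15376872), was at 7.59 FPKM in AOC3 and 12.6 in AOC3-LN, against 5.27 in AOC11 and 6.11 in AOC11-LN. The AOC3 lines lay above the AOC11 lines, 1.77-fold by their means and 1.24-fold between the nearest. The log2 difference of 0.76 ± 0.32 (SE) stayed within the threshold, and limma's adjusted p was 0.293. The lymph node line was the higher in both mice, with ratios of 1.66 (counting interval 1.52 to 1.81) and 1.16 (1.04 to 1.29). A noncoding gene on the opposite strand, A930024N18Rik, overlaps Dll1.

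The 3 ligands summed to 80.5 FPKM in AOC3 and 78.9 in AOC3-LN, against 78.0 in AOC11 and 57.5 in AOC11-LN, and Jag2 gave the largest share in each line, from 55.6% to 83.5%. Ligand RNA exceeded receptor RNA in every line, by 7.09 and 11.1 times in AOC3 and AOC3-LN and by 3.70 and 2.78 times in AOC11 and AOC11-LN. The plot of summed levels shows that the ligand sums were close in 3 lines and the receptor sums were not.

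**Figure D2:**
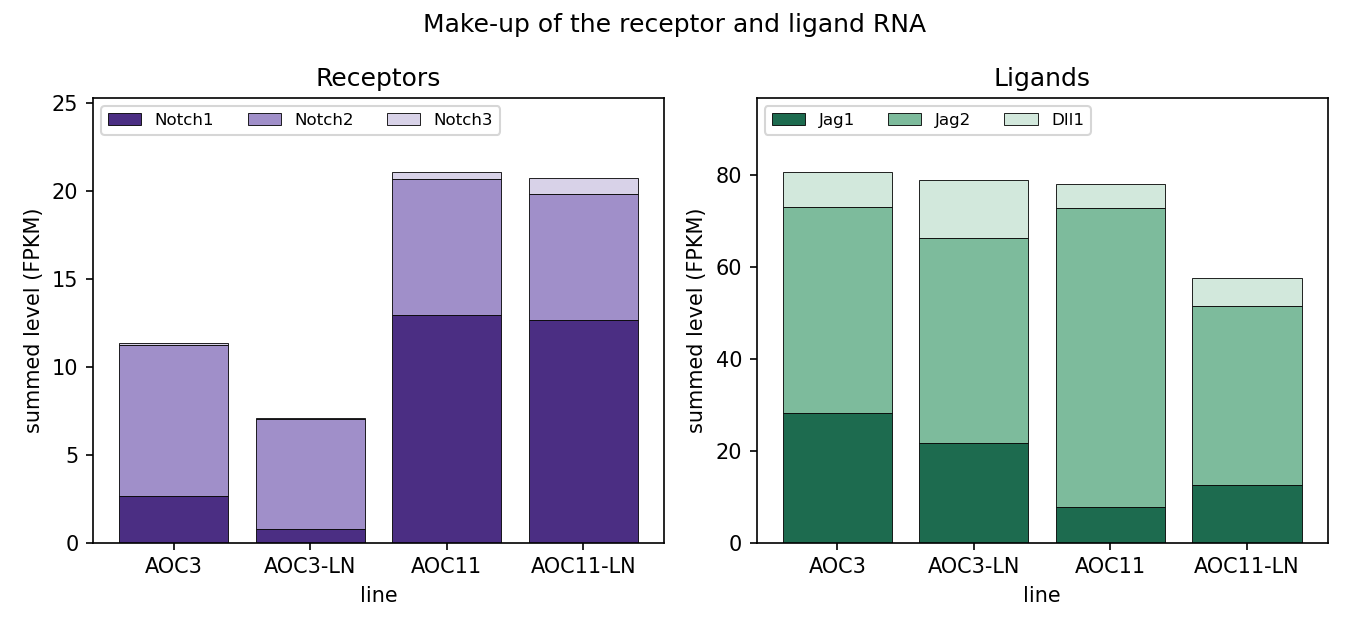
Summed level in FPKM (vertical axis, from 0) of the 3 receptors (left) and the 3 ligands (right) in each line (horizontal axis), with the genes stacked; each bar is 1 library. The receptor sums run from 7.11 FPKM in AOC3-LN to 21.1 FPKM in AOC11, with Notch1 (dark) the larger part in the AOC11 lines and Notch2 in the AOC3 lines, and the ligand sums run from 57.5 to 80.5 FPKM with Jag2 the largest part.

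Among the targets, Hes1 was the member that differed the same way by nearly the same amount between primary and lymph node in both mice. Hes1 encodes a basic helix-loop-helix repressor and is the most general readout of Notch signaling, although other pathways act on it as well. The gene (ENSMUSG00000022528.8, chromosome 16, 30064384 to 30067796) was at 9.97 FPKM in AOC3 and 16.2 in AOC3-LN, against 13.7 in AOC11 and 21.5 in AOC11-LN. Each lymph node line lay above its primary line, with ratios of 1.62 (counting interval 1.43 to 1.84) and 1.57 (1.41 to 1.74). With the mouse as a term, the log2 difference of lymph node minus primary was 0.68 ± 0.24 (SE, n = 2 lines of each kind), and limma's adjusted p over all genes was 0.999. Between the mice the log2 difference was -0.34 ± 0.36 (SE) with an adjusted p of 0.628, and the lines overlapped. So Notch1 and Hes1 did not share an order of lines, since AOC3-LN held the lowest Notch1 level and the second highest Hes1 level.

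Nrarp encodes an ankyrin repeat protein that binds the Notch intracellular part and damps the signal, and the gene is a direct target of Notch. Nrarp (ENSMUSG00000078202.3, chromosome 2, 25180758 to 25183339) was at 7.26 FPKM in AOC3 and 10.1 in AOC3-LN, against 4.42 in AOC11 and 5.41 in AOC11-LN. The AOC3 lines lay above the AOC11 lines, with 1.34-fold between the nearest. The log2 difference was 0.78 ± 0.27 (SE), within the threshold, and limma's adjusted p was 0.240. The lymph node line was the higher in both mice, with ratios of 1.40 (counting interval 1.25 to 1.56) and 1.22 (1.06 to 1.41). The order of the lines, from AOC3-LN through AOC3 and AOC11-LN to AOC11, was the same for Nrarp and Dll1, and it was not the order of Notch1. Gm38287, on the opposite strand, overlaps Nrarp.

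Hey1, a repressor of the Hey family best known from vessels and heart (ENSMUSG00000040289.8, chromosome 3, 8663359 to 8667256), was close to absent from the libraries. It was at 0.0262 FPKM in AOC3, listed at 0 in AOC3-LN, and at 0.0264 in AOC11 and 0.0909 in AOC11-LN, from about 1.99, 0, 2.00 and 6.67 fragments. At this depth no difference between the lines could be seen for it.

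Over the members, 8 of 10 passed the filter on low values. Between the mice 2 of these 8 passed the fold threshold, Jag1 higher in the AOC3 lines and Notch1 higher in the AOC11 lines, while 11.1% of the 14155 tested genes passed it, 5.11% above 1 and 6% below -1. The lines of the mice did not overlap in FPKM for 5 of the 8, with Jag1, Dll1 and Nrarp higher in the AOC3 lines and Notch1 and Lfng in the AOC11 lines, against 53% of tested genes. The median difference of the 8 was -0.03, and that of all tested genes 0.01. limma called 0 of the 8 at an adjusted p under 0.05, against 0.205% of tested genes (29). An unadjusted p under 0.05 was found for 3 of the 8, against 18.7% of tested genes. Between lymph node and primary 0 of the 8 passed the fold threshold in either mouse, against 5.53% of genes in the AOC3 mouse and 8.1% in the AOC11 mouse. With the mouse as a term limma called 0 of the 8 at an adjusted p under 0.05, against 0.0141% of genes (2), and 1 of the 8 had an unadjusted p under 0.05, against 2.86% of genes. All 4 lines enter both limma fits, so their calls are not independent of each other.

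**Figure D3:**
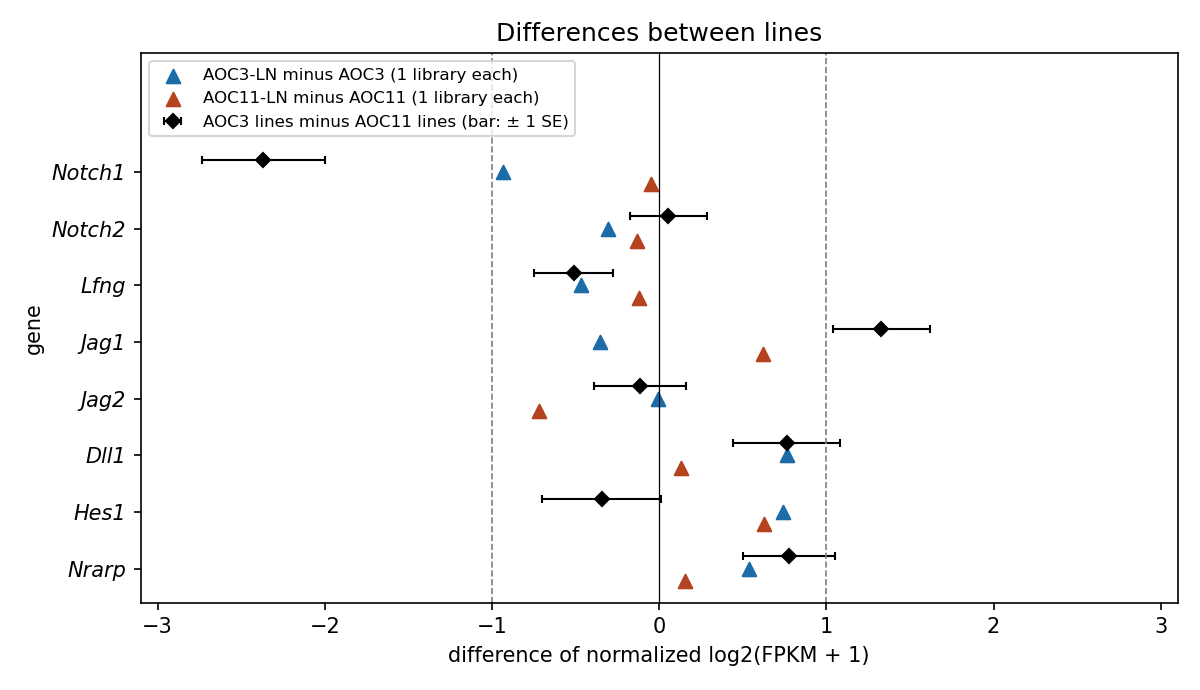
Difference of normalized log2(FPKM + 1) (horizontal axis) for the 8 members past the filter (vertical axis). Black diamonds are the AOC3 lines minus the AOC11 lines with bars of ± 1 SE from limma, and triangles are the lymph node minus the primary line of the AOC3 mouse (blue) and the AOC11 mouse (red), 1 library each. Dashed lines mark the fold threshold at -1 and 1, which Notch1 and Jag1 pass in the comparison of the mice and no member passes between sites.

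By range over the lines, the members followed the order Notch1, Jag1, Dll1, Nrarp, Hes1, Lfng, Jag2 and Notch2, from 2.86 down to 0.31 log2 units. The genes with the pattern most like that of Notch1, by the distance between normalized levels centred on each gene's mean over the 4 lines, were Samd5 at 0.11, Psrc1 at 0.17 and Wnt11 at 0.27. Samd5 was at 1.62, 0.202, 8.01 and 8.51 FPKM in AOC3, AOC3-LN, AOC11 and AOC11-LN. With 4 lines a profile has few ways to differ, and 13 other genes lay within 0.5 of Notch1.

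The rest of the pathway was read from a list of 59 further genes, ordered by role, of which 49 passed the filter. The filter asked for 1 FPKM in any line. Neurl1a, Neurl1b, Aph1b, Aph1c and Hey2 reached this only in AOC11 lines, and Dll4 and Trp63 only in AOC3 lines. For these genes the filter itself favoured the direction of the difference. Between the mice 10 of the 49 passed the fold threshold, 4 towards the AOC3 lines and 6 towards the AOC11 lines. Of all tested genes 11.1% passed it, 5.11% above 1 and 6% below -1. The median difference of the 49 was -0.17, and that of all tested genes 0.01. The plot of pathway genes by role shows these 49 genes and the 8 tested members.

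**Figure D4:**
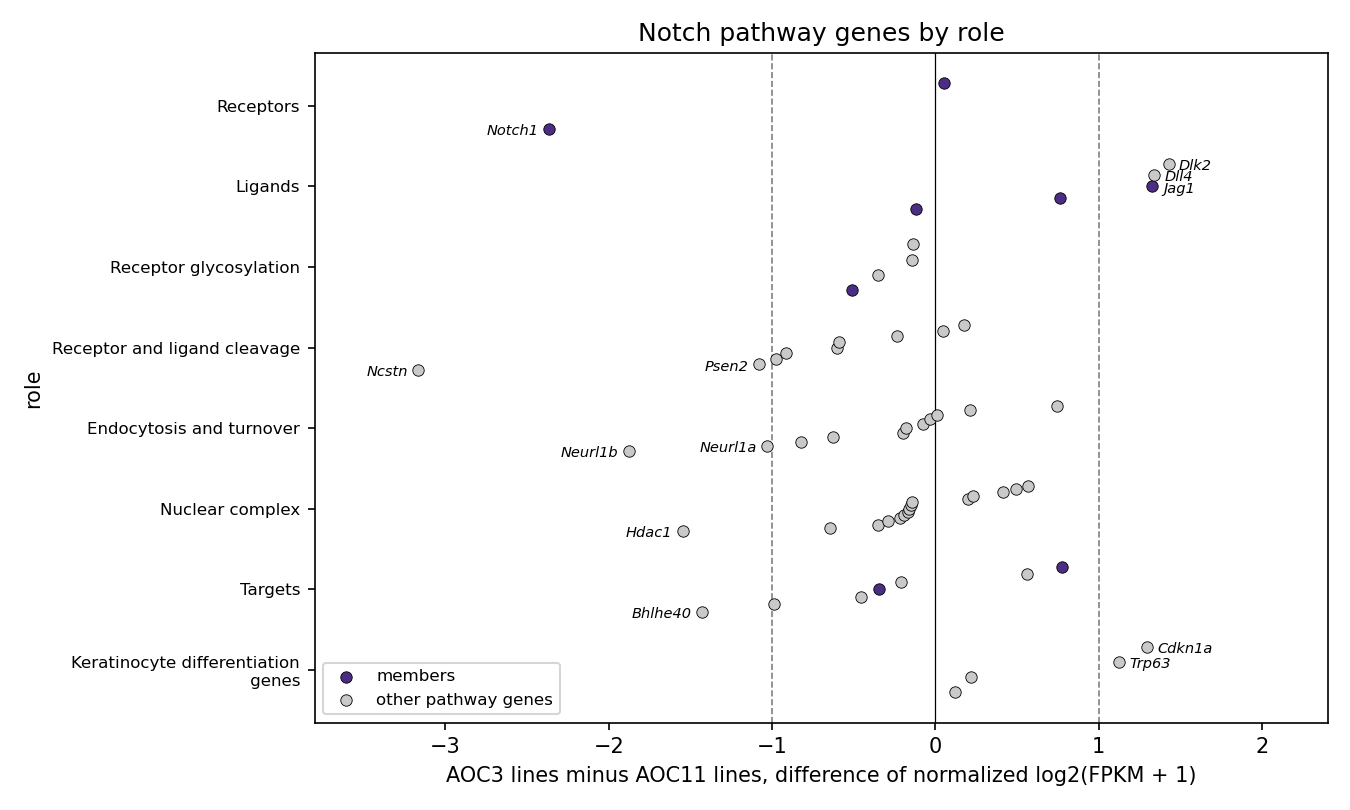
Difference of normalized log2(FPKM + 1), AOC3 lines minus AOC11 lines (horizontal axis), for the tested Notch pathway genes by role (vertical axis; points of a role are spread upwards by value only to keep them apart). Purple points are the members and grey points the other genes, dashed lines mark the fold threshold, and genes past it are named. Ncstn, at -3.17, lies furthest from 0, and Jag1, Dll4 and Dlk2 of the ligand group lie above 1.

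Among genes of receptor and ligand cleavage, Ncstn differed most between the mice. Ncstn encodes nicastrin, the subunit of gamma-secretase that receives the substrate. It was at 3.77 FPKM in AOC3 and 3.34 in AOC3-LN, against 46.4 in AOC11 and 37.8 in AOC11-LN, and the lower AOC11 line was 10.01-fold above the higher AOC3 line. The log2 difference was -3.17 ± 0.20 (SE) with limma's adjusted p of 0.0224, the 1 call among the 49 genes, 14 of which had an unadjusted p under 0.05, against 18.7% of all tested genes. Leaving out any 1 of the lines ended this call, with adjusted p-values in limma between 0.133 and 0.342, as did testing without a filter, at 0.223, while the difference itself stayed between -3.33 and -3.02. Copa, a protein-coding gene on the opposite strand, overlaps Ncstn. Psen2, a catalytic subunit of the same protease, was at 3.28, 1.64, 6.34 and 6.503 FPKM in AOC3, AOC3-LN, AOC11 and AOC11-LN, a difference of -1.08 that was -0.79 without AOC3-LN. The subunit genes Aph1b and Aph1c, named after their values were seen, came close to the threshold in the same direction at -0.98 and -0.91, both from 1.53 FPKM or less. The remaining listed genes of cleavage stayed within the threshold, with Psenen at -0.60, Furin at -0.59, Aph1a at -0.24, Adam10 at 0.18 and Adam17 at 0.04.

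Among the other ligands, Dll4, a Delta ligand best known from vessels, was at 1.16 FPKM in AOC3 and 3.76 in AOC3-LN, against 0.307 in AOC11 and 0.300 in AOC11-LN. It passed the threshold between the mice at 1.34, though not without AOC3-LN, at 0.71, and was the 1 gene of the list that passed it upwards in AOC3-LN, at 1.30. Dlk2, a relative of the Delta ligands, was at 15.3, 7.17, 7.005 and 1.76 FPKM in the same order of lines and passed it at 1.43, though not without AOC11-LN, at 0.58, or without AOC3, at 0.97. Dlk2 was lower in the lymph node line of each mouse, by -0.92 and -1.70 log2 units, and the second of these passed the threshold. The gene Abcc10 overlaps Dlk2 on the opposite strand. Of the 5 tested genes of the ligand group, members included, 3 were past the threshold towards the AOC3 lines and none towards the AOC11 lines. Of all tested genes 5.11% and 6% were. Of the 3, only Jag1 stayed past it whichever line was left out. Dll4 reached 1 FPKM only in AOC3 lines, so the filter favoured its direction, and Dlk2 is not a canonical ligand. The count is therefore not a result about ligands as a group. Dll3 and Dlk1 were under the filter.

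Neurl1b and Neurl1a encode ubiquitin ligases that act on the ligands' uptake. Neurl1b was at 0.383, 0.0760, 3.76 and 3.53 FPKM in AOC3, AOC3-LN, AOC11 and AOC11-LN, a difference of -1.88 ± 0.28 (SE), with limma's adjusted p of 0.0944, and 0.0415 among protein-coding genes alone. Neurl1a was lower in the AOC3 lines as well, at -1.03, and at -0.90 without AOC3. Both genes reached 1 FPKM only in AOC11 lines, so the filter favoured this direction. In the nuclear complex Rbpj itself was level, from 78.8 to 105.9 FPKM and with a difference of -0.15. Hdac1, a histone deacetylase of the corepressor complex, was the 1 of 15 genes of that group past the threshold, against 11.1% of all tested genes. Hdac1 was at -1.55, with 21.2 and 22.9 FPKM in the AOC3 lines and 69.2 and 69.1 in the AOC11 lines. Its adjusted p in limma was 0.0637, and it fell under 0.05 among protein-coding genes alone, at 0.0244, and with a filter of 5 FPKM, at 0.0456. With a line left out, the adjusted p of Neurl1b and of Hdac1 in limma lay between 0.199 and 0.539.

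Among the other targets, Bhlhe40, a helix-loop-helix repressor, was at 82.6 FPKM in AOC3 and 32.5 in AOC3-LN, against 153 in AOC11 and 140.0 in AOC11-LN. It passed the threshold between the mice at -1.43 and between AOC3-LN and AOC3 at -1.34, and the first of these was -0.76 without AOC3-LN. Hey2, named after its values were seen, was listed at 0 in both AOC3 lines and was at 1.02 and 0.978 FPKM in AOC11 and AOC11-LN. The targets Hes5, Hes7 and Heyl stayed under the filter, and Hes2 was at 0 in all 4 lines, as Dtx1 nearly was. Of keratinocyte differentiation genes, Krt1 was under the filter. Trp63, the basal cell regulator p63, was above the threshold towards the AOC3 lines at 1.12, as was Cdkn1a, the cell cycle inhibitor p21, at 1.30. Without AOC3-LN these were 0.97 and 0.94, and Trp63 was 0.82 without AOC11. Trp63 was low, at 1.69, 2.10, 0.0848 and 0.841 FPKM in AOC3, AOC3-LN, AOC11 and AOC11-LN. Krt10 and Ivl, named after their values were seen, stayed within the threshold at 0.22 and 0.12.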

How the data were processed

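RNA of the 4 lines was read as paired ends from stranded mRNA libraries. The authors trimmed reads with Trim Galore, ran TopHat2 against mm10 and obtained FPKM with Cufflinks (annotation GENCODE M21), and the table they deposited holds FPKM, not log2 values. Tool versions are not given in the sources used here. Where a gene identifier had several entries, that with the highest mean was kept. From these, log2(FPKM + 1) was quantile-normalized over 34721 entries, and genes with at least 1 FPKM in a line were tested. limma 3.58.1 in R 4.3.3 (lmFit, eBayes with trend) gave differences between mice, and between sites with the mouse as a term. The fit between mice was run on simulated lines with independent noise, unlike the related lines of a mouse. That run checks the code and not the calls made here. The table holds no counts: depth was estimated from whole-fragment steps of low values, 71.8% to 74.9% of which lay within 0.1 of a whole number against 20% by chance, and fragments of a gene from its longest coding transcript. For site ratios, 95% intervals are Poisson approximations. Alternatives were the pseudocount, normalization, filter, threshold, site as a term, protein-coding genes alone, and each line left out. Some genes of the pathway list are not reported here. The members and lists were chosen with earlier results of these data known. Named were the members, pathway genes past the threshold in any comparison or under the filter, and the 3 genes nearest in profile to the member of widest range; others are marked as chosen after values were seen, or given as levels of a group.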

Additional observations from a re-analysis of the deposited data

Results flagged for a closer look

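For a pair of members the lymph node line differed from its primary line in opposite directions in the 2 mice, with both counting intervals clear of 1. The Jag1 ratio was 0.765 in the AOC3 mouse and 1.64 in the AOC11 mouse. The Notch3 ratio was 0.537 and 2.35, from levels under 1 FPKM, and its interval in the AOC3 mouse (0.289 to 0.997) came close to 1. The difference between the mice was not tested, since each line is 1 library and the intervals hold counting error only.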

How the results depend on the processing

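The count of members past the fold threshold between the mice was 2 and rose to 4 at a threshold of 1.5-fold (Dll1 and Nrarp added), which 26.9% of all tested genes passed. Leaving out 1 line at a time gave 2 to 4 members, with 4 without AOC3, and 6 to 13 of the other pathway genes, with 6 without AOC3-LN, against 10 with all lines. That pathway count was 6 with a filter of 5 FPKM, where 11.3% of tested genes passed, and 19 at 1.5-fold, against 26.9%. Of all tested genes, 14.0% passed without AOC3, 10.5% without AOC3-LN, 13.8% without AOC11 and 13.3% without AOC11-LN, against 11.1% with all lines. In the AOC3 mouse the count of members between sites was 0, against 5.53% of genes. It was 1, Notch1 each time, with median scaling (5.60% of genes), no quantile step (5.79%) or a pseudocount of 0.1 (10.2%). At 1.5-fold it was 3, against 13.8% of genes. In the AOC11 mouse it was 0, and 3 at 1.5-fold, against 24.6%. limma called 1 member, Notch1, among protein-coding genes alone, and 0 with a line left out. Over all genes limma made 29 calls, 256 among protein-coding genes, 50 with a filter of 5 FPKM, 0 without a filter and 0, 4, 0 and 0 without AOC3, AOC3-LN, AOC11 and AOC11-LN; a lone line was then assumed to vary like the other pair. The cause was not tested. Signs turned for differences between the mice near 0. Notch2 was at -0.014 without quantile normalization and between -0.10 and 0.21 over the lines left out, Hes1 between -0.71 and 0.026, and Jag2 between -0.47 and 0.24. The lines pair by mouse, and the comparison of sites was fitted with the mouse as its block. The labels give no replicate numbers that would pair them in another way. Depth limits Hey1, Notch3 and the other genes under 1 FPKM.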

Other observations

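The protein-coding genes beside Ncstn and Notch1 on their chromosomes, chosen after the values of these genes were seen, give the local setting of the widest differences. Beside Ncstn, Copa, Pex19 and Dcaf8 differed between the AOC3 and AOC11 lines by -0.20, -0.22 and 0.19 log2 units, and Vangl2 by -0.63. Pea15a, 4 genes away from Ncstn, was at 47.1, 43.9, 119.9 and 97.8 FPKM in AOC3, AOC3-LN, AOC11 and AOC11-LN, a difference of -1.19. Beside Notch1, Sec16a differed by -0.88 and Egfl7, on its other side, by 0.07, and further out Inpp5e, Pmpca and Entr1 differed by 0.19, 0.21 and 0.09, and Agpat2 and Fam69b by -0.40 and 0.13.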
